A study of Homo sapiens with 2 samples.

Results

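The regions described here are broad SOX9 peaks of modest score in VCaP cells. VCaP is an established cell line of human prostate cancer, positive for the TMPRSS2-ERG fusion and with high basal SOX9. They were chosen from the authors' list of SOX9 peaks by 2 values of the same list: a width of 1000 bp or more and a score below 40, on chromosomes 1 to 22. The rule kept 414 of 7437 autosomal peaks (5.57%), out of 7547 peaks in the whole list. The study comprised 1 library immunoprecipitated with an antibody against SOX9 and 1 input library, which was sonicated VCaP chromatin that was set aside before immunoprecipitation. Both came from cells grown in serum-containing medium, with no treatment named in the labels. With 1 library in each group (the names of the SOX9 peaks carry replicate number 2) no replicate error could be measured and no p-value is given. The intervals are exact Clopper-Pearson 95% intervals over peaks, which take peaks as independent and cover only counting error. The read depth behind both lists is unknown.

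SOX9 is a transcription factor of the SOX family. It binds DNA through an HMG-box domain, which contacts the minor groove and bends the helix, and it is known for its roles in cartilage, testis and prostate development. The series title places it upstream of WNT signalling in prostate cancer. In chromatin immunoprecipitation followed by sequencing, a peak is a stretch where fragments pile up. Its width reflects fragment length, how many bound sites lie side by side, and how the peak caller joins neighbouring stretches. A score ranks peaks within a list and, for a given caller, generally rises with the enrichment at the strongest point. The caller behind these scores, and the scale of the scores, are unknown here. Genes, promoters and sequence under the peaks were not analysed here, so each region is identified by its hg18 position.

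Because width and score chose the regions, their values are a description. The median width was 1209 bp (quartiles 1080 and 1398 bp) and the range was 1000 to 3234 bp. Many regions lay close to the lower width limit, and 200 of the 414 (48.3%) were narrower than 1200 bp. A further 140 measured 1200 to under 1500 bp, 61 measured 1500 to under 2000 bp, and 13 were wider still. The median score was 21.1 (quartiles 13.99 and 28.97), with extremes of 3.64 and 39.5. Under a score of 10 there were 43 regions, and 220 scored 20 or more. The 414 regions shared 246 distinct score values, and the most common of these, 37.9, was carried by 10 regions. Within the set, width and score were only loosely related across regions (Spearman's rho = 0.19, n = 414 peaks of 1 library), whereas rho was 0.65 across all other autosomal peaks. Limits on both values narrow their ranges, so these 2 coefficients are not on equal terms.

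Together the broad regions of modest score covered 0.534 Mb, which was 13.1% of all bases under autosomal SOX9 peaks from 5.57% of the peaks. Broad peaks that scored 40 or more numbered 386 and covered 0.598 Mb, with a median width of 1405 bp and a median score of 73.4. Narrower peaks in the overlapping score range of 10 to under 40 numbered 1861, with a median width of 511 bp and a median score of 16.01. These 2 sets, the nearest in score and in width, serve as comparisons below, beside all 7023 other autosomal peaks, whose median width was 397 bp and median score 7.77.

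**Figure D1:**
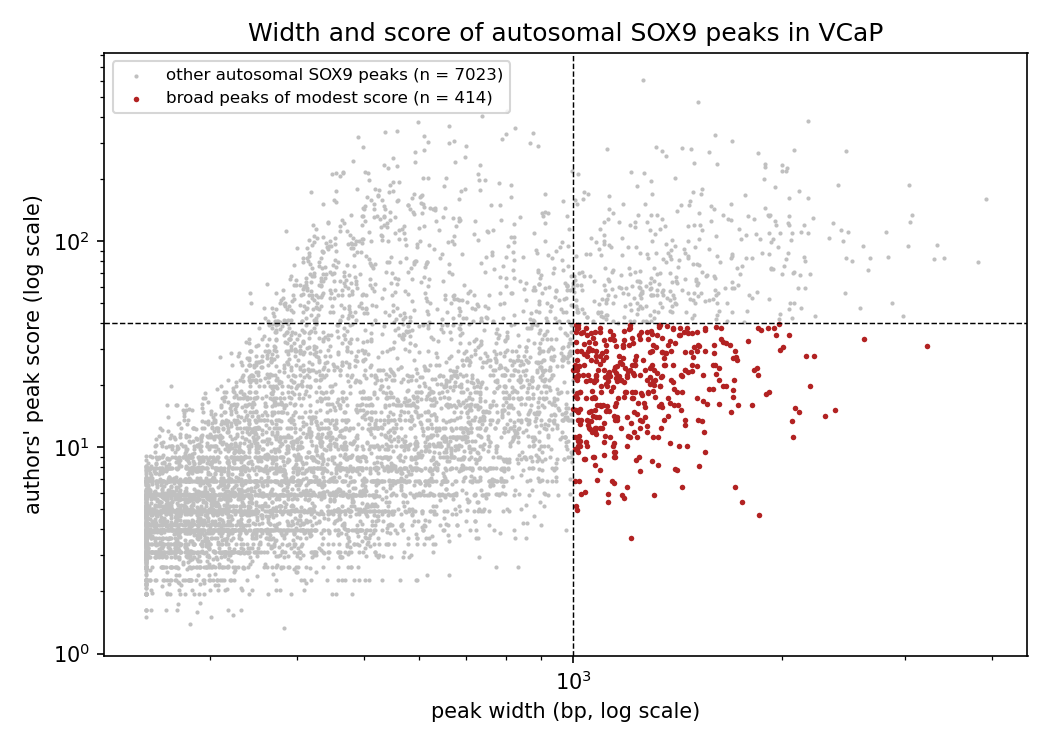
Width in bp against the authors' score, both on log axes, for each autosomal SOX9 peak; red points are the 414 broad regions of modest score, grey points the 7023 other peaks, and the dashed lines are the limits of 1000 bp and 40. The red points crowd towards the width limit, and no gap separates them from the grey points at either limit.

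The widest region spanned 3234 bp of chromosome 11 (69340630 to 69343863) and had a score of 31.0. Its nearest SOX9 peak lay 40622 bp away, so it stood alone at the scale of 10 kb. The second, of 2621 bp on chromosome 3 (13894912 to 13897532), scored 33.5 and was also isolated, with 220265 bp to its nearest peak. The other three in this ranking were flanked by close peaks. A region of 2377 bp on chromosome 9 (132524749 to 132527125) scored 15.1 and had 3 other peaks within 10 kb. A region of 2302 bp on chromosome 19 (18577350 to 18579651) scored 14.2 and had a peak of score 2.61 at a gap of 96 bp. A region of 2221 bp on chromosome 12 (130878413 to 130880633) scored 27.9 and had a peak of score 6.85 at a gap of 100 bp.

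The lowest scores in the set belonged to a region of 1212 bp on chromosome 15 (65904493 to 65905704) with 3.64, a region of 1849 bp on chromosome 9 (34578961 to 34580809) with 4.68, and a region of 1012 bp on chromosome 17 (2605436 to 2606447) with 4.99. The chromosome 15 region lay 914 bp from a peak that scored 47.8, which was itself above the score limit. The 3 highest scores were 39.5 on chromosome 5 (107033287 to 107035262, 1976 bp) and 39.3 for 2 regions on chromosome 2 (31213594 to 31214610, and 233499993 to 233501320). Just outside the score limit, a chromosome 11 peak scored 40.2 (65944771 to 65945929), a chromosome 1 peak 40.36 (3557837 to 3559596) and a chromosome 12 peak 40.4 (121253943 to 121255218). At the width limit, the narrowest regions kept measured 1000 bp on chromosome 12 (74710981 to 74711980), 1000 bp on chromosome 22 (19115111 to 19116110) and 1003 bp on chromosome 7 (16759674 to 16760676). The widest peaks left out measured 998 bp on chromosome 14 (101100393 to 101101390), 998 bp on chromosome 18 (11741884 to 11742881) and 997 bp on chromosome 8. The limits thus cut through a continuous range of both values.

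The same limits were applied to the input list as a background. Of 336 autosomal input peaks, 1 was at least 1000 bp wide with a score below 40 (0.298%, interval 0.00753 to 1.65%), against 5.57% in the SOX9 list. That input peak measured 1041 bp on chromosome 17 (38755651 to 38756691). The smallest width also differs between the 2 lists, and their scores need not share a scale, so the 2 shares are set side by side only.

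Few SOX9 peaks of any kind overlapped input chromatin. Of the 414 broad regions of modest score, 1 shared bases with an input peak (0.242%, interval 0.00612 to 1.34%), while over all autosomal SOX9 peaks the share was 0.43%. Among broad peaks scoring 40 or more, 0 of 386 overlapped, which allows a share of up to 0.777% by a limit of 3 counts of 386 and up to 0.951% by the exact interval. Among narrower peaks of the same score range, 15 of 1861 did (0.806%, interval 0.452 to 1.33%). Per Mb covered, this was 1.87 overlapping peaks for the broad regions of modest score and 14.5 for the narrower peaks of the same score range. The intervals of the shares overlapped, so no difference was detectable at these numbers. Their order also turned when SOX9 peaks within 500 bp were merged first, which gave 0.566% for the regions, 0.368% for all other peaks, 0.554% for the narrower set and 0.235% for the broad strong set. Whether the authors called SOX9 peaks against input is not known, and such calling would lower every one of these shares.

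The single overlapping region lay on chromosome 1 (121185764 to 121187001), was 1238 bp wide and scored 16.4. All of its 1238 bases fell inside an input peak of 1418 bp (121185596 to 121187013). That input peak scored 130 on the scale of the input list. It was the only one of the 414 regions with an input peak within 10 kb. The median distance to the nearest input peak was 10.7 Mb over the 394 regions on chromosomes with input peaks, and 10.3 Mb for 6742 other SOX9 peaks.

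The regions were then counted by chromosome, as a share of each chromosome's own SOX9 peaks. All 22 autosomes carried at least 1 region. The share was highest on chromosome 18, where 13 of 112 peaks qualified (11.6%, interval 6.33 to 19.0%), 2.09 times the share over all autosomes. It was next highest on chromosome 13, with 14 of 160 (8.75%, 4.87 to 14.2%), and chromosome 20, with 22 of 263 (8.37%, 5.32 to 12.4%). The low end was formed by chromosome 16, with 1 of 155 (0.645%, 0.0163 to 3.54%), chromosome 22, with 6 of 163 (3.68%, 1.36 to 7.84%), and chromosome 19, with 20 of 534 (3.75%, 2.30 to 5.73%). Of the 22 intervals, that of chromosome 18 lay above 5.57% and that of chromosome 16 lay below it. The intervals of the other 20 chromosomes included 5.57%, and no allowance was made for looking at 22 of them. Shares at both ends moved with the settings, and the values that follow stayed inside the intervals as reported. Relative to all autosomes, chromosome 16 stood at 0.116 as reported, at 0.299 with a width limit of 800 bp and at 0.391 when SOX9 peaks within 500 bp were merged first, and chromosome 22 stood at 0.661 as reported and at 1.03 after merging.

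**Figure D2:**
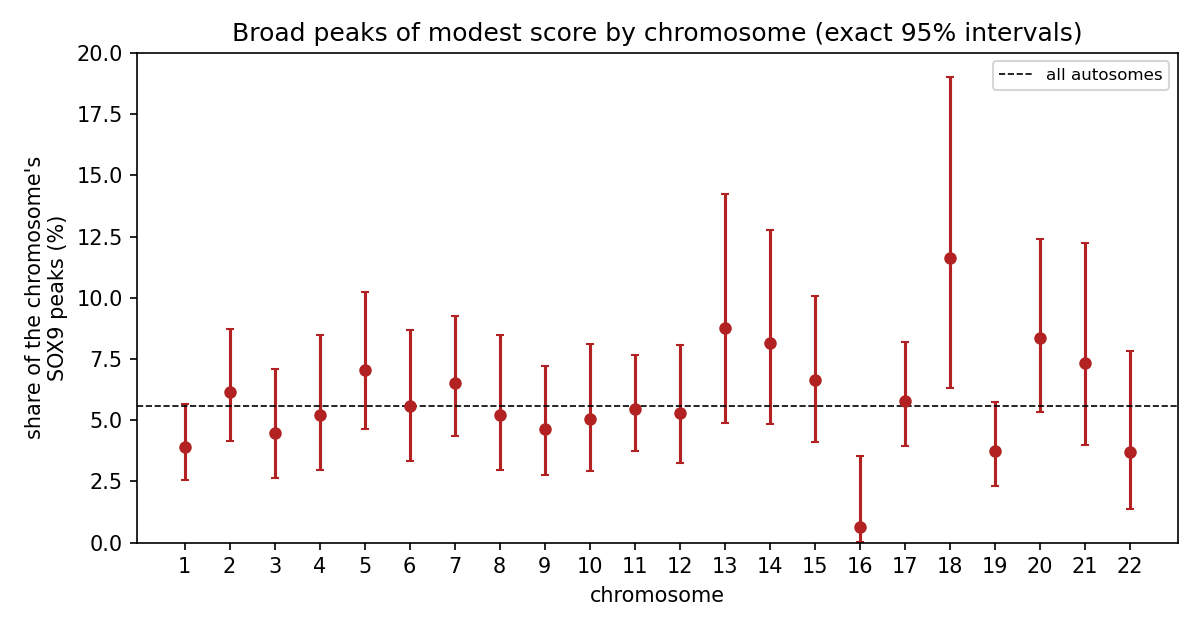
Share in percent of each autosome's SOX9 peaks that were broad with a score below 40; points are shares, bars exact 95% intervals, and the dashed line the share over all autosomes. Chromosome 16 at 0.645% and chromosome 18 at 11.6% are the 2 whose intervals miss the line at 5.57%.

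Counts per Mb gave another order, since they follow how many SOX9 peaks of any kind a chromosome has. Over the span between the outermost peaks of either list, chromosome 17 held 0.382 regions per Mb (exact Poisson interval 0.258 to 0.545), chromosome 20 held 0.354 (0.222 to 0.536) and chromosome 19 held 0.315 (0.192 to 0.486), compared with 0.149 over all autosomes. Chromosome 16 held 0.0114 (0.000288 to 0.0633). Across the 22 autosomes, regions per Mb followed SOX9 peaks per Mb (rho = 0.76), while the share of peaks that qualified showed little relation to it (rho = -0.15). In the first coefficient both values are divided by the same span, and the regions are among the peaks. In the second the count of peaks enters both values. Chromosome copy number in VCaP was not measured.

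Chromosome 16 was looked at further because of its low count, a choice made after its values were seen. Its only region measured 1276 bp (76025760 to 76027035) and scored 36.4, and no other SOX9 peak lay within 1 Mb of it. The median score of the chromosome's SOX9 peaks was 9.02, against 7.94 over all autosomes, and 12.9% of them scored 40 or more, against 13.1%. Broad peaks with higher scores were present there. Chromosome 16 had 7 broad peaks that scored 40 or more, a share of 4.52% (1.83 to 9.08%) compared with 5.19% over all autosomes, which the interval includes. These 7 scored from 51.6 to 162.

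Widths within a range of scores are given as a description only, since width and score chose the regions and the regions are among the peaks counted. Of 54 chromosome 16 peaks scoring 10 to under 40, 1 was at least 1000 bp wide (1.85%, interval 0.0469 to 9.89%). On the other autosomes it was 370 of 2178 (16.99%, 15.4 to 18.6%). Below a score of 10, 0 of 81 chromosome 16 peaks were that wide (exact interval 0 to 4.45%), against 1.04% (0.751 to 1.39%) on the other autosomes. The 54 peaks scoring 10 to under 40 had a median width of 439 bp and quartiles of 355 and 547 bp, against 593, 398 and 873 bp elsewhere, with median scores of 18.5 and 17.1. Chromosome 19 had a similar median width of 440 bp in this score range, with an upper quartile of 657 bp, and 18 of its 153 peaks were broad (11.8%, 7.12 to 18.0%). At the other end, chromosome 18 had a median of 867 bp over 38 peaks, of which 13 were broad (34.2%, 19.6 to 51.4%). Chromosome 21 had the same counts, 13 of 38, with a median of 729 bp. These medians carry no interval and restate in part the shares given above. The input list held 36 peaks on chromosome 16, and 7 of the 155 SOX9 peaks there lay within 10 kb of one. Over all autosomal SOX9 peaks outside the set it was 51 of 7023 (0.726%, 0.541 to 0.954%). An input peak was overlapped by 4 of the 155, against 32 of 7437 (0.43%) over all autosomal SOX9 peaks. As shares of the peaks counted, both were thus higher on chromosome 16, which is included in the totals. The part of input signal in the low count was not tested.

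**Figure D3:**
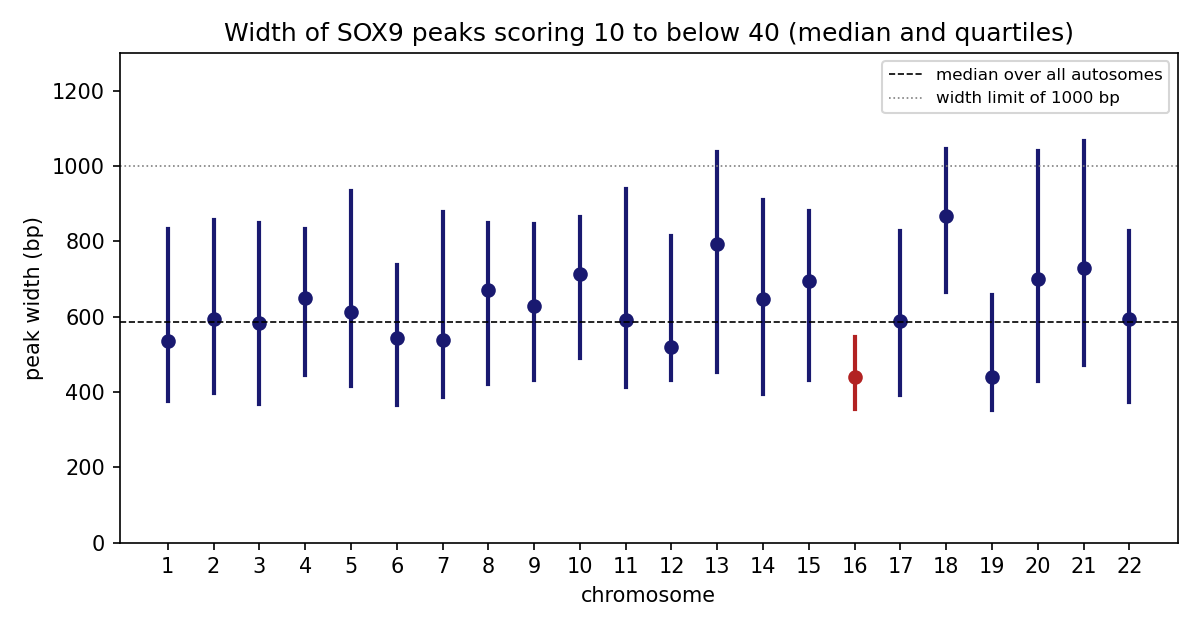
Width in bp of the 2232 SOX9 peaks scoring 10 to below 40, by chromosome; points are medians, bars run from the lower to the upper quartile, and lines mark the median over all autosomes (585 bp, dashed) and the limit of 1000 bp (dotted). Chromosome 16, in red, has its upper quartile at 547 bp, and chromosome 18 has the highest median at 867 bp.

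Along the chromosomes the regions were counted in windows, with no comparison set ranked in the same way. They occurred in 240 of 543 windows of 5 Mb that held any SOX9 peak, and 139 of these windows held exactly 1. The fullest window was on chromosome 11 between 65 and 70 Mb, with 8 regions (Poisson interval 3.45 to 15.8) among 129 peaks. It was followed by the window of chromosome 20 from 60 Mb, with 7 among 62 peaks, and by 3 windows with 6 each. One of these was the stretch of chromosome 11 from 60 to 65 Mb, with 150 peaks. The others with 6 were chromosome 19 from 35 to 40 Mb, with 27 peaks, and chromosome 21 from 30 to 35 Mb, with 28. The remaining windows of the 10 fullest held 5 regions among 23 and among 40 peaks, and 4 among 70, among 17 and among 24. Together the 10 fullest windows held 55 regions, 13.3% of the set. They were ranked by the count of regions itself, so this share is no measure of clustering.

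The stretch of chromosome 11 from 60 to 70 Mb, where SOX9 peaks were densest, held 14 regions among 279 peaks (5.02%, 2.77 to 8.28%). The rest of that chromosome held 17 among 288 (5.90%, 3.48 to 9.28%). Density of peaks did not go with a higher share in general. In windows with 6 to 15 peaks, 162 of 2498 peaks qualified (6.49%, 5.55 to 7.52%), and in windows with over 40 peaks, 71 of 1683 did (4.22%, 3.31 to 5.29%). The corresponding shares of broad peaks scoring 40 or more were 6.49% (5.55 to 7.52%) and 3.98% (3.10 to 5.03%). For both kinds of broad peak these 2 intervals did not overlap. Windows with 16 to 40 peaks gave 5.50% (4.69 to 6.41%) for the regions of modest score and 4.97% (4.19 to 5.84%) for broad strong peaks. Windows with 5 peaks or fewer gave 5.90% (3.92 to 8.46%) and 3.93% (2.35 to 6.14%), so the share of broad strong peaks was about as low there as in the fullest windows.

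Near chromosome ends the share of the regions was close to that of the whole list. Within 5 Mb of the outermost peak of either list lay 80 of 414 (19.3%, 15.6 to 23.5%), while over all autosomal SOX9 peaks the share was 19.2%. For narrower peaks of the same score range it was 15.4% (13.8 to 17.1%), and for broad peaks scoring 40 or more 17.9% (14.2 to 22.1%), with intervals that overlapped that of the regions. Chromosome 20 contributed 10 of the 80, from its 22 regions, and 110 of its 263 SOX9 peaks lay this close to an end. Chromosome 16 contributed none, but it held only 1 region, while 47 of its 155 peaks lay near an end.

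The next question was whether a broad region of modest score stood alone or among other SOX9 peaks. Another SOX9 peak lay within 10 kb, measured from edge to edge, for 143 of 414 regions (34.5%, 29.96 to 39.3%), and over all autosomal peaks the share was 34.4%. The 2 shares were close. Both sets nearest to them had lower shares, at 27.7% (23.3 to 32.5%) for broad peaks scoring 40 or more and 27.8% (25.8 to 29.9%) for narrower peaks of the same score range. The first of these intervals overlapped that of the regions, and the second ended just below it. Counting only neighbours that scored 5 or more gave 22.7% for the regions and 25.8% for all other peaks. Merging SOX9 peaks within 500 bp before applying the limits, which also changed the set to 707 regions, gave 21.1% and 19.2%. The regions scoring under 10 have no counterpart in the latter set. With them left out, 122 of 371 regions had a neighbour (32.9%, 28.1 to 37.9%), and this interval overlapped that of the narrower peaks.

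Split by score, the share with a neighbour within 10 kb was 48.8% (33.3 to 64.5%) for the 43 regions under 10, 35.8% (28.1 to 44.0%) for the 151 scoring 10 to under 20, 31.8% (24.0 to 40.5%) for the 132 scoring 20 to under 30, and 29.5% (20.3 to 40.2%) for the 88 scoring 30 to under 40. Narrower peaks in the same 4 score ranges gave 39.6% (38.1 to 41.1%), 29.7% (27.2 to 32.4%), 24.8% (20.8 to 29.2%) and 22.1% (16.5 to 28.5%). The broad regions were higher in each of the 4 ranges, and in each the 2 intervals overlapped. In both kinds of peak the share was largest at the lowest scores. By width, 74 of 200 regions under 1200 bp had such a neighbour (37.0%, 30.3 to 44.1%), and 37 of 140 from 1200 to under 1500 bp (26.4%, 19.3 to 34.5%). It was 26 of 61 from 1500 to under 2000 bp (42.6%, 30.04 to 55.9%) and 6 of 13 from 2000 bp (46.2%, 19.2 to 74.9%). The share fell and then rose with width, so there was no steady trend, and the widest group is small.

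**Figure D4:**
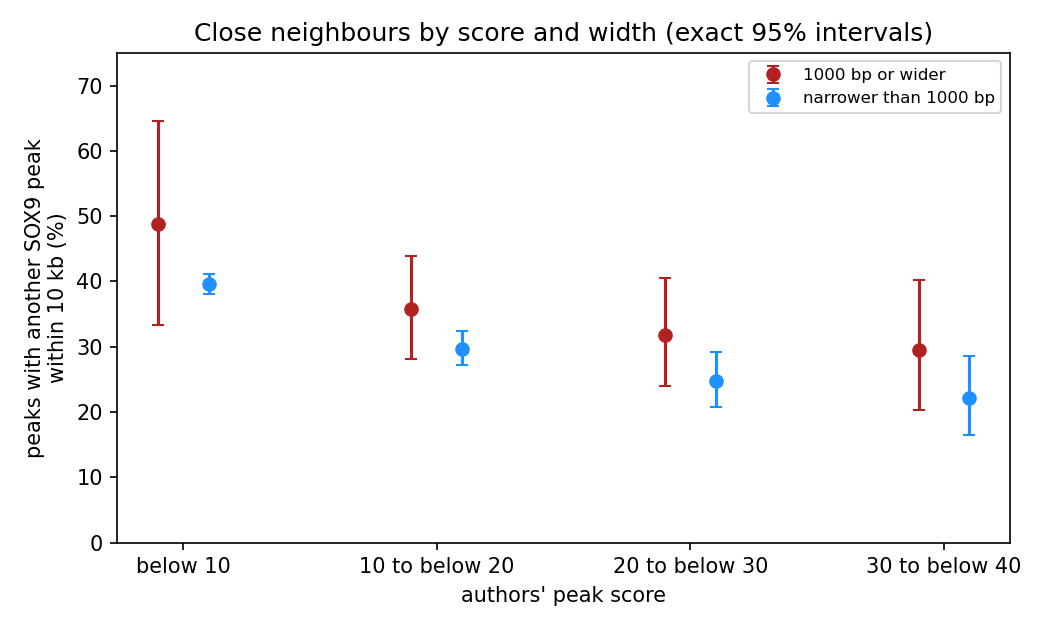
Share in percent of peaks with another SOX9 peak within 10 kb, by the authors' score, for peaks of 1000 bp or wider (red) and narrower ones (blue); bars are exact 95% intervals. Red lies above blue in each of the 4 ranges with overlapping intervals, and both are lowest at scores of 30 to below 40.

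Much of this company was very close. For 96 of the 414 regions (23.2%, 19.2 to 27.6%) the nearest peak lay within 1 kb, against 23.6% over all autosomal peaks. The gap in these 96 cases had a median of 178 bp and quartiles of 84.5 and 341 bp, and it was at most 100 bp in 31 of them. These gaps were shorter than those of the comparison sets. For 1662 other autosomal peaks with a neighbour this close, the median was 248.5 bp (quartiles 119 and 428 bp), with 337 gaps of at most 100 bp. Broad peaks scoring 40 or more had a median of 241.5 bp, with 13 of 66 such gaps. For narrower peaks of the same score range it was 244 bp, with 67 of 364. The difference was not tested. No 2 autosomal peaks of the list were closer than 51 bp. The close neighbours resembled those of other peaks in score and width. Their median score was 5.68 and their median width 378 bp, against 6.81 and 402 bp for the close neighbours of all other autosomal peaks. Of the 96, 70 (72.9%, 62.9 to 81.5%) scored below 10, against 66.4% (64.1 to 68.7%). In 77 of the 96 cases (80.2%, 70.8 to 87.6%) the neighbour scored lower than the broad region beside it. For narrower peaks of the same score range this was 285 of 364 (78.3%, 73.7 to 82.4%), so a weaker companion was about as frequent there. Of the 96 close neighbours, 8 were themselves at least 1000 bp wide and 8 scored 40 or more. Among 1662 close neighbours of all other autosomal peaks these counts were 161 and 126, and among 364 of the narrower set 30 and 26. The regions were thus not set apart by either count.

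A strong peak in the surroundings was uncommon. Only 16 of the 414 regions had a SOX9 peak scoring 40 or more within 10 kb (3.86%, 2.22 to 6.20%), compared with 4.34% (3.88 to 4.85%) of all other autosomal peaks and 3.17% (2.42 to 4.07%) of narrower peaks of the same score range. These intervals overlapped.

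At longer range the regions had somewhat fewer SOX9 peaks around them than the rest of the list. The median gap to the nearest peak was 55.3 kb (quartiles 1.48 and 228 kb), against 39.1 kb (1.35 and 145 kb) for all other autosomal peaks. Within 100 kb a further peak was found for 59.2% of the regions (54.3 to 64.0%) and for 68.0% of the others (66.9 to 69.1%). The median number of other SOX9 peaks within 1 Mb of the centre was 7 (quartiles 3 and 15) against 9 (4 and 19). Against peaks nearer in width or score the difference was smaller. The share within 100 kb was 61.9% (59.7 to 64.1%) for narrower peaks of the same score range and 56.2% (51.1 to 61.2%) for broad peaks scoring 40 or more, both with intervals that overlapped that of the regions, and the median count within 1 Mb was 7 for both.

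The density of SOX9 peaks around a broad region of modest score fell steeply with distance. In the first 1 kb of flank it was equivalent to 132 peaks per Mb, from 3 to 10 kb it was 12.2, and from 300 kb to 1 Mb it was 5.96. The first was 22.1 times the last. In narrower peaks of the same score range the corresponding ratio was 20.5, in broad peaks scoring 40 or more it was 16.9, and in all other autosomal peaks it was 19.2. From 1 to 3 kb the regions had 29.6 peaks per Mb of flank, compared with 23.6 for all other autosomal peaks, 15.4 for the narrower set and 18.8 for the broad strong set. That interval rests on 49 neighbours of the 414 regions.

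**Figure D5:**
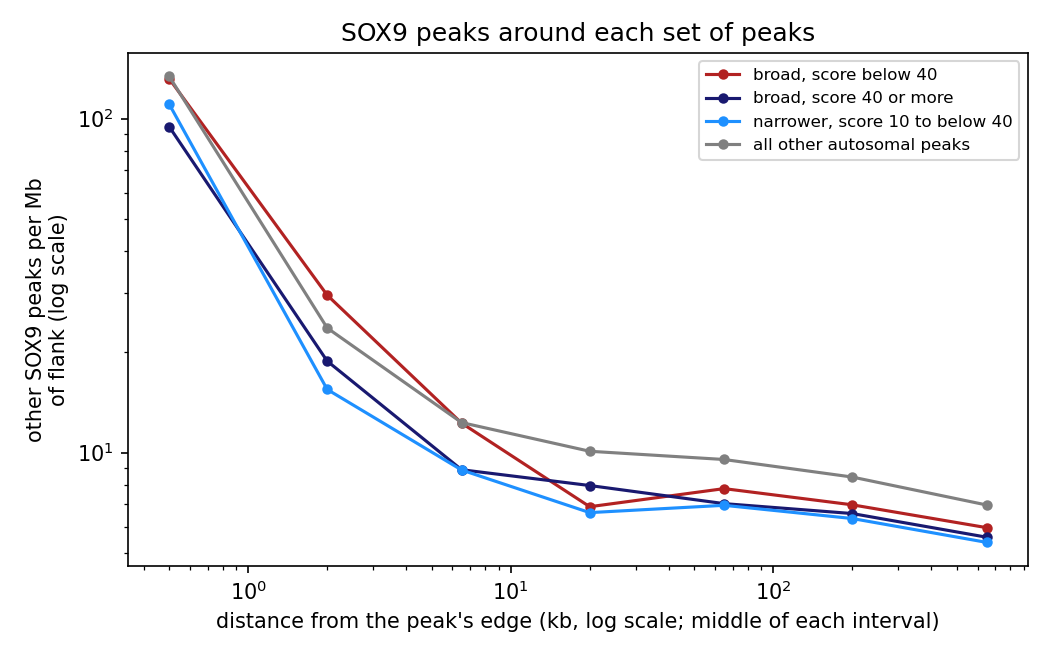
Number of other SOX9 peaks per Mb of flank against the distance from the peak's edge in kb, both on log axes, for 4 sets of autosomal peaks; points stand at the middle of each distance interval and pool all peaks of a set, with no error drawn. All 4 lines fall from between 94.6 and 134 per Mb in the first 1 kb to between 5.38 and 6.97 beyond 300 kb.

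The nearest peak belonged to the set about as often for the regions as for all other autosomal SOX9 peaks. The median gap between consecutive regions on a chromosome was 3.01 Mb (quartiles 0.805 and 7.79 Mb, 392 gaps), and 3 gaps were 10 kb or shorter. The nearest SOX9 peak of a region was itself in the set in 22 of 414 cases (5.31%, 3.36 to 7.94%). For all other autosomal peaks it was 361 of 7023 (5.14%, 4.64 to 5.68%). Both were close to the 5.57% that the set makes up of the list. Joining peaks up to 10 kb apart placed the 414 regions in 410 runs, of which 271 consisted of the region alone, 84 of 2 peaks and 55 of 3 peaks or more. With or without a region, the autosomal list held 252 runs of 3 peaks or more. A region alone in its run has no neighbour within 10 kb, and that share was close to that of the whole list, as given above. A second region was present in 4 runs.

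The run with most peaks was on chromosome 11 (63808506 to 63843389), with 11 peaks over 34.9 kb, of which 2 were broad with modest scores and the highest scored 123. A run on chromosome 13 (111759651 to 111776188) held 6 peaks, 2 of them in the set, and its highest score of 22.4 belonged to a region of 1535 bp (111774654 to 111776188). On chromosome 19, 2 regions stood only 53 bp apart in a run of 3 peaks (38476245 to 38486201). They measured 1179 bp (38483859 to 38485037, score 31.4) and 1111 bp (38485091 to 38486201, score 21.8). The fourth such run, on chromosome 21 (33316892 to 33322079), was made up of 2 regions alone, which scored 29.1 and 24.8 and lay 2689 bp apart. None of these 4 runs contained a peak that overlapped input.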

How the data were processed

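Per the labels' protocols, VCaP chromatin was crosslinked and sonicated, and both the SOX9 ChIP and the input were sequenced on a Genome Analyzer. Per the submitters' processing notes, CASAVA 1.8.2 and hg18 were used. For the aligner, the peak caller and its threshold, the sources used here give no name. The deposited files list each peak's position and a score of unstated scale, which served only to choose and describe peaks within a list. The regions and comparison sets were chosen with earlier results of these data known.

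Widths are end minus start, and starts were converted to 1-based positions. Gaps run from edge to edge, and overlap means at least 1 shared bp. The outermost peak of either list stood for a chromosome end. Peaks named by position are the 5 widest regions, the 3 highest and lowest scores, the 3 peaks on each side of each limit, overlaps with input, the runs with most regions and the fullest windows, and chromosomes are the 3 highest and 3 lowest by share. The fourth run with 2 regions was added after its values were seen. Counting was tested on simulated data, where 50 of 50 planted neighbours and 30 of 30 planted input overlaps were recovered in lists of 7487 peaks. The gene table used GRCh38, so genes and sequence, though planned, were not analysed here. Limits, distances and merging were varied. Intervals came from scipy 1.17.1, tables from pandas 2.3.3 with numpy 2.4.6 in Python 3.11.15, and plots from matplotlib 3.10.9.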

Additional observations from a re-analysis of the deposited data

Results flagged for a closer look

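Peaks on X, Y and mitochondrial DNA were outside the comparisons, which were limited to autosomes. On X, 7 of 88 SOX9 peaks were at least 1000 bp wide with a score below 40 (7.95%, interval 3.26 to 15.7%), while the input list had 0 of 20 such peaks there. On Y it was 2 of 14 SOX9 peaks (14.3%, 1.78 to 42.8%) and 0 of 37 input peaks. On mitochondrial DNA it was 0 of 8 SOX9 peaks and 2 of 8 input peaks (exact interval 3.19 to 65.1%).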

How the results depend on the processing

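Alternatives gave 155 values, of which 118 lay inside the reported 95% interval or, where there was none, within a factor of 1.5. The number of regions was 802 with a width limit of 800 bp, 74 with 1500 bp, and 707 when SOX9 peaks within 500 bp were first merged. With the limit of 1500 bp the share on chromosomes 16 and 22 was 0 relative to all autosomes, as it was on chromosome 16 with a score limit of 30, and input overlap was 0%; few regions are left there. The ratio for chromosome 16 was 0.299 with 800 bp and 0.391 after merging, against 0.116 as reported, and that for chromosome 22 was 1.03 after merging, against 0.661. Merging gave 0.566% of regions and 0.368% of all other peaks overlapping input. The width limit of 1500 bp gave 43.2% of regions with a neighbour within 10 kb and 24.3% within 5 Mb of an end. After merging, a neighbour within 10 kb was found for 21.1% of the regions, 19.2% of all other peaks, 14.1% of narrower peaks of the same score range and 17.6% of broad peaks scoring 40 or more. Counting only neighbours that scored 5 or more gave 22.7%, 25.8%, 20.4% and 19.9% in the same order. With gaps of up to 5 kb, 31.6% of the regions, 29.8% of all other peaks, 24.2% of the narrower set and 24.6% of the broad strong set had a neighbour, and with gaps of up to 25 kb the shares were 40.3%, 43.6%, 35.6% and 34.97%, so the regions lay above all other peaks at 5 kb and below them at 25 kb. Leaving out chromosome 11 gave 32.6% for the regions and 33.1% for all other peaks. Within 5 Mb of the centre the median count was 34 for the regions and 36 for the others. The fullest window held 14 regions with windows of 10 Mb, where the 10 fullest held 17.1%, and also 14 with a width limit of 800 bp. Within 2 Mb of an end lay 11.8%, 10.8%, 7.68% and 8.55% in the order above, and within 10 Mb 29.95%, 28.4%, 26.2% and 30.3%. Except where the construction shows it, the cause was not tested. No paired analysis was possible because each group held 1 library, and no replicate could be left out. The read depth is unknown, so no detection limit can be set.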
